A study of Arabidopsis thaliana with 6 samples.

Results

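The genes described here make and break down starch. They were given as 42 Arabidopsis locus identifiers for the enzymes, transporters and targeting proteins of the pathway. The choice was by function, but earlier results of these data were known when it was made. Of the 42 genes, 41 are listed among the 17675 genes of the deposited expression table. BAM6 (AT2G32290) was not analysed here. Inflorescences of Arabidopsis thaliana, also labelled floral meristems, were profiled by RNA-seq in the genotype ARF3:ARF3-GR arf3-29, in which the auxin response factor ARF3, joined to the steroid-binding domain of the glucocorticoid receptor and named for the ARF3 promoter, is carried in the arf3-29 mutant. The DEX group (3 libraries) was treated with 10 µM of the steroid dexamethasone, which lets such a fusion protein enter the nucleus, in DMSO with 0.015% Silwet L-77, a wetting agent. The DMSO group (3 libraries) is labelled with the solvent, and no dexamethasone is listed for it. Silwet L-77 at 0.015% is listed for both groups, and the DMSO treatment is described no further. Plants of both groups were 3 weeks old, carried the same transgene and mutant allele, and grew at 23 °C in long days (16 h light, 8 h dark). Flowers of stage 7 or older were dissected away. No DEX-treated plants without the fusion protein are among these samples, so effects of the steroid itself and of ARF3-GR cannot be told apart.

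Starch is stored in plastids. ADP-glucose pyrophosphorylase makes ADP-glucose, starch synthases add its glucose to growing chains, branching enzymes add branch points, and isoamylases trim them so that the glucan can crystallise. In tissues that depend on imported sugar, glucose 6-phosphate enters the plastid through GPT transporters. Breakdown in leaves at night begins when glucan kinases phosphorylate the granule surface. Beta-amylases then release maltose, which MEX1 exports to the cytosol and DPE2 processes there, and many genes of the pathway follow the circadian clock.

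Promoter windows of 6 starch genes are shown because each holds at least 1 of the motifs counted below and they belong to genes that moved in opposite directions. Windows are the 250 bases before the annotated gene start in RefSeq's TAIR10.1 sequence and annotation, matched by locus identifier and written 5′ to 3′ along the gene. The searched motifs, on both strands, were CACGTG, AAAATATCT (the evening element), TGTCTC and TGTCGG (auxin response elements), TATCCA (a sugar response element known from rice amylase genes) and GATAAG (the I-box), and capitals mark every match to any of them or its reverse complement. BAM9 and SS4 were higher in DEX, and LSF1, PHS1, GPT2 and BAM5 were lower. In PHS1 a CACGTG and the reverse complement of TATCCA overlap.
BAM9 (TAIR10.1, chr5:6225706-6225955, plus strand): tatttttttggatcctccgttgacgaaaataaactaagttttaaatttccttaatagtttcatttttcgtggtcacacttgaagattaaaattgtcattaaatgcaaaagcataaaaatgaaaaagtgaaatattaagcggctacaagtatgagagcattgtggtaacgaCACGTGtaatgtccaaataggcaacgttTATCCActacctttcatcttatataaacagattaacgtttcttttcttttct
SS4 (TAIR10.1, chr4:10081858-10082107, plus strand): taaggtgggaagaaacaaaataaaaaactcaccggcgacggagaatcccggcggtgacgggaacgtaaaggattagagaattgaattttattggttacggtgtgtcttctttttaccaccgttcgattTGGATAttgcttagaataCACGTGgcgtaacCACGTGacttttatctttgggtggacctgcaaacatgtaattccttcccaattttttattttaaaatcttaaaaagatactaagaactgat
LSF1 (TAIR10.1, chr3:201811-202060, minus strand): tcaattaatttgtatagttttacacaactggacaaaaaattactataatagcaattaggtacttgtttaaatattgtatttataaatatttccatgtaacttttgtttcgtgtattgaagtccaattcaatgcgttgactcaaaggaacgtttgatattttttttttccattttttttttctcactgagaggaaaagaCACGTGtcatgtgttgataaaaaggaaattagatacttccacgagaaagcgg
PHS1 (TAIR10.1, chr3:11252557-11252806, plus strand): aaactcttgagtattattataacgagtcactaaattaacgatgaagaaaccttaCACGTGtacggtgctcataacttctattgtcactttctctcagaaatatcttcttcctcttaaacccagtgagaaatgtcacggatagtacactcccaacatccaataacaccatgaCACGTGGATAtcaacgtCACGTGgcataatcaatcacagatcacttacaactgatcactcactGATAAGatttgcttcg
GPT2 (TAIR10.1, chr1:22824164-22824413, plus strand): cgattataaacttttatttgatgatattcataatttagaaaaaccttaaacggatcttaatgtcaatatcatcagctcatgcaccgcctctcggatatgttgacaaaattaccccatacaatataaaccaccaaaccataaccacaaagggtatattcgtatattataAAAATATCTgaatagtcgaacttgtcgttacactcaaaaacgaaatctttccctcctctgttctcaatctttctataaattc
BAM5 (TAIR10.1, chr4:8669527-8669776, minus strand): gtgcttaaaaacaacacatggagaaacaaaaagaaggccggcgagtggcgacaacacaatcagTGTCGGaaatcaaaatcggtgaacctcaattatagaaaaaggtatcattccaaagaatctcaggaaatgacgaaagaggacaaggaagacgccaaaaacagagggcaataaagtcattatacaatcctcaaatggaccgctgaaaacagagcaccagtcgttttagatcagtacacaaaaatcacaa

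CACGTG was present in 11 of 41 starch promoters (26.8%), against 1309 of 17645 promoters of listed genes (7.42%). It was found in 2 of the 8 starch genes that were higher in DEX, in 6 of the 22 that were lower and in 3 of the 11 that did not pass the test. AAAATATCT was present in 4 starch promoters (9.76%, against 2.55% of all), those of PGM1, GPT2, ISA3 and PWD. TATCCA was present in 5 (12.2%, against 14.2%), namely BAM9, SS4, AMY2, PHS1 and ISA2. GATAAG was present in 6 (14.6%, against 12.3%). TGTCTC was found in the ISA3 promoter alone and TGTCGG in the BAM5 promoter alone (2.44% each, against 10.4% and 4.57% of all promoters). These shares are descriptions of the windows and carry no test.

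Levels are the authors' deposited RPM, the reads of a gene per 1000000 reads of all listed genes, given in DEX-1, DEX-2 and DEX-3 and in DMSO-1, DMSO-2 and DMSO-3 in that order, or as mean ± SD over n = 3 libraries. Differences are log2 fold changes of DEX over DMSO on the log2(RPM + 1) scale, with adjusted p-values from limma over all genes. Reads of the listed genes were 10703769 to 14469527 per library. Individual starch genes had from 22 reads (AMY1) to 6080 reads (BAM9) in a library, and 8 of the 41 had fewer than 100 in some library. DEX-3 stood apart from the other DEX libraries (Spearman correlation across genes of 0.985 to 0.987, against 0.991 within DMSO). The young flower markers AP1, LFY, STM, UFO, AP3, PI, SEP3, CLV3 and WUS were present in every library. The deposited table gives levels in mixed tissue, inflorescences freed of flowers of stage 7 or older. Fewer cells of a type and less RNA per cell therefore cannot be told apart.

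More starch genes fell than rose in DEX, and the ones that rose most were the beta-amylase relatives BAM4 and BAM9. Of 41 genes 22 were lower (53.7%, where 28.1% of all genes were), 8 were higher (19.5%, where 29.6% of all genes were) and 11 did not pass the test. The median log2 fold change of the 41 genes was -0.34, against 0.00 over all 17675 genes, of which 57.7% passed. By at least 1 on the log2 scale, 5 were lower (5.23% of all genes were), namely BAM5, GBSS1, APL2, APL4 and LSF1. Higher by that much were 2 (8.84% of all genes were), BAM4 and BAM9. The 3 DEX libraries lay entirely above the 3 DMSO libraries for 9 starch genes (32.1% of all genes) and entirely below them for 23 (30.7% of all genes). In either direction that made 32 of 41, where 62.9% of all genes were without overlap. Without DEX-3, 7 starch genes were higher and 23 were lower. The set was chosen with earlier results of these data known, so its shares are descriptions and no test.

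The call of 24 genes, 4 higher and 20 lower, held in all 17 alternative analyses, including that without a minimum, which repeats the main analysis. Those of APL1, PGM1, GPT1, AMY2, SS2 and ISA1 did not, and without DEX-2 only 4 starch genes passed as higher, without DMSO-1 or without DMSO-3 5 passed. The 4 that held as higher were BAM4, BAM9, BAM1 and SS4.

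**Figure D1:**
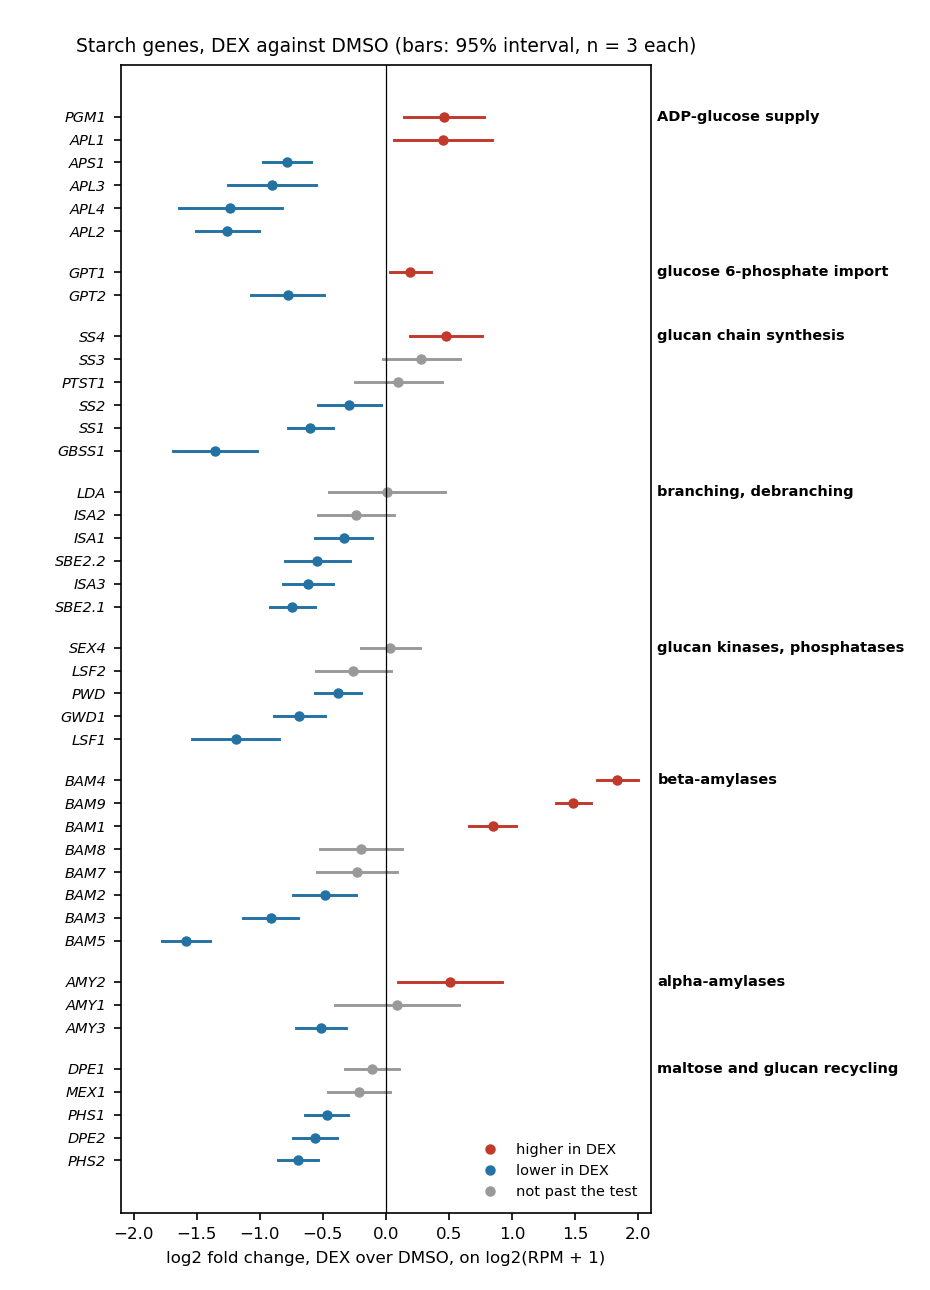
Log2 fold change of DEX over DMSO on log2(RPM + 1) (x axis) for the 41 listed starch genes, grouped by role, with 95% intervals from limma (3 libraries each). BAM4 (1.83) and BAM9 (1.48) lie farthest to the right and BAM5 (-1.59) farthest to the left, and all called genes among branching enzymes, glucan kinases and phosphatases, and recycling enzymes lie to the left of 0.

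RNA for most subunits of the enzyme that supplies ADP-glucose fell in DEX. ADP-glucose pyrophosphorylase consists of a catalytic small subunit, APS1, and large subunits, APL1 to APL4, that set its response to metabolites. Of its 5 genes 4 were lower in DEX (28.1% of all genes were). APL2 (AT1G27680) had 13.08, 10.92 and 13.02 RPM in DEX libraries, against 30.6, 29.6 and 32.1 RPM in DMSO libraries. The DEX values were all below the DMSO values and close to each other (log2 fold change -1.26, SE 0.117, adjusted p = 7.27e-08). APL4 (AT2G21590) had 2.99, 2.14 and 3.99 RPM in DEX libraries, against 8.52, 8.57 and 7.90 RPM in DMSO libraries. No DEX library reached the lowest DMSO library (log2 fold change -1.23, SE 0.193, adjusted p = 3.49e-05), and in plain RPM the DMSO mean was 2.74 times the DEX mean.

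APL3 (AT4G39210), a large subunit known from roots and other non-green tissue, averaged 5.53 ± 1.03 RPM in DEX and 11.1 ± 1.14 RPM in DMSO (log2 fold change -0.90, adjusted p = 0.000170). APS1 (AT5G48300) averaged 54.7 ± 6.28 RPM in DEX and 94.6 ± 6.72 RPM in DMSO (log2 fold change -0.78, adjusted p = 9.93e-07). Its DEX libraries, 61.6, 53.2 and 49.3 RPM, lay below all DMSO libraries, 101, 87.8 and 94.8 RPM. APL1 (AT5G19220), the main large subunit of leaves, was higher in DEX, with 5.58 ± 0.703 RPM in DEX and 3.81 ± 0.544 RPM in DMSO (log2 fold change 0.45, adjusted p = 0.0446). The adjusted p was 0.121 without DEX-2, 0.114 without DEX-3, 0.0809 without DMSO-1, 0.141 without DMSO-3 and 0.0535 with edgeR on recovered reads. APL1 also shares up to 645 exon bases with genes on the opposite strand, whose reads cannot be set apart where strand is not used.

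Per kilobase of exon, the make-up of the large subunits shifted together with the drop in their sum. Summed RPM per kb of APL1 to APL4 was 12.7 ± 1.32 in DEX and 24.9 ± 0.581 in DMSO (SD, n = 3 each). APL2 was the most abundant in every library, with 45.4 ± 3.70% of the sum in DEX and 57.7 ± 2.58% in DMSO. APL1 held 22.4, 29.5 and 24.5% in DEX libraries, against 8.73, 10.2 and 7.59% in DMSO libraries, with no overlap. The share of APL3, 20.6 ± 1.74% in DEX and 21.3 ± 1.68% in DMSO, overlapped between the groups.

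PGM1 (AT5G51820), the plastid phosphoglucomutase that makes the glucose 1-phosphate used by this enzyme, averaged 14.6 ± 2.19 RPM in DEX and 10.3 ± 1.18 RPM in DMSO (log2 fold change 0.46, adjusted p = 0.0139, but 0.0507 without DEX-2 and 0.0688 without DMSO-3). The glucose 6-phosphate transporters divided. GPT2 (AT1G61800), known in leaves as sugar-inducible, had 22.8, 23.3 and 15.2 RPM in DEX libraries, against 34.1, 33.7 and 37.9 RPM in DMSO libraries. DEX-3 was the lowest, and the groups did not overlap (log2 fold change -0.78, SE 0.137, adjusted p = 0.000111, and -0.59 without DEX-3). GPT1 (AT5G54800), the transporter needed for pollen and embryo sac development, averaged 72.4 ± 3.77 RPM in DEX and 63.1 ± 2.34 RPM in DMSO, a log2 fold change of 0.19 with an adjusted p of 0.0417 that was over 0.05 without any of DEX-1, DEX-2, DMSO-1, DMSO-2 and DMSO-3 (0.0569 to 0.139). GPT1 made up 78.4 ± 3.10% of the pair's RPM per kb in DEX and 64.5 ± 2.23% in DMSO.

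Of the 6 genes that build glucan chains, 3 were lower (28.1% of all genes were) and 1 was higher (29.6% of all genes were). GBSS1 (AT1G32900), the granule-bound synthase that makes amylose, had 4.95, 6.57 and 7.63 RPM in DEX libraries, against 19.1, 16.7 and 17.3 RPM in DMSO libraries. The highest DEX library was below the lowest DMSO library by more than the range of either group (log2 fold change -1.36, SE 0.158, adjusted p = 1.18e-06). SS1 (AT5G24300), which makes short amylopectin chains, averaged 36.1 ± 1.02 RPM in DEX and 55.2 ± 2.05 RPM in DMSO (log2 fold change -0.60, adjusted p = 1.08e-05). SS2 (AT3G01180), which extends them to intermediate length, had 23.9, 19.1 and 26.2 RPM in DEX libraries, against 27.7, 28.7 and 28.3 RPM in DMSO libraries. The log2 fold change was -0.29 (adjusted p = 0.0439). It was -0.17 without DEX-2 (adjusted p = 0.240), and it failed the test without any other library except DEX-3 (0.0512 to 0.110).

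SS4 (AT4G18240), which initiates starch granules, rose to 14.29, 12.79 and 13.02 RPM in DEX libraries, against 9.17, 9.82 and 9.01 RPM in DMSO libraries (log2 fold change 0.47, SE 0.136, adjusted p = 0.00666). SS3 (AT1G11720), which makes long chains, had 10.5 ± 0.390 RPM in DEX and 8.46 ± 0.707 RPM in DMSO and did not pass (log2 fold change 0.28, 95% interval -0.03 to 0.59). PTST1 (AT5G39790), which brings GBSS1 to the granule, had a log2 fold change of 0.10 (95% interval -0.25 to 0.44) and did not pass. Among the synthases, the share of RPM per kb held by GBSS1 was 9.07 ± 1.79% in DEX and 18.1 ± 0.872% in DMSO. The share held by SS4 was 12.9 ± 0.853% in DEX and 6.44 ± 0.458% in DMSO.

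Of the 6 branching and debranching genes 4 were lower in the test (28.1% of all genes were). The others did not pass, and none of the 6 was higher (29.6% of all genes were). SBE2.1 (AT2G36390), a branching enzyme, had 33.4, 33.9 and 36.9 RPM in DEX libraries, against 58.8, 58.9 and 58.2 RPM in DMSO libraries. Values within each group were tight, and the log2 fold change was -0.74 (SE 0.0847, adjusted p = 9.55e-07). Its paralogue SBE2.2 (AT5G03650) averaged 14.4 ± 1.61 RPM in DEX and 21.4 ± 0.391 RPM in DMSO (log2 fold change -0.54, adjusted p = 0.000994). SBE2.1 held 70.8 ± 2.97% of the pair's RPM per kb in DEX and 73.4 ± 0.295% in DMSO.

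ISA3 (AT4G09020), a debranching enzyme of breakdown, averaged 36.0 ± 3.64 RPM in DEX and 55.5 ± 2.97 RPM in DMSO (log2 fold change -0.62, adjusted p = 2.59e-05). ISA1 (AT2G39930), the catalytic isoamylase of synthesis, averaged 31.0 ± 1.86 RPM in DEX and 39.6 ± 5.396 RPM in DMSO (log2 fold change -0.34, adjusted p = 0.0121, and 0.0982 without DMSO-2, its highest library). ISA1 shares up to 704 exon bases with genes on the opposite strand, of which AT2G39940 was higher in DEX. Its non-catalytic partner ISA2 (AT1G03310) had a log2 fold change of -0.24 (95% interval -0.54 to 0.06) and did not pass. LDA (AT5G04360), the limit dextrinase, had 8.03, 7.19 and 3.71 RPM in DEX libraries, against 5.87, 5.50 and 6.72 RPM in DMSO libraries. DEX-3 was below every DMSO library and the other DEX libraries were above them (log2 fold change 0.01, 95% interval -0.46 to 0.47).

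**Figure D2:**
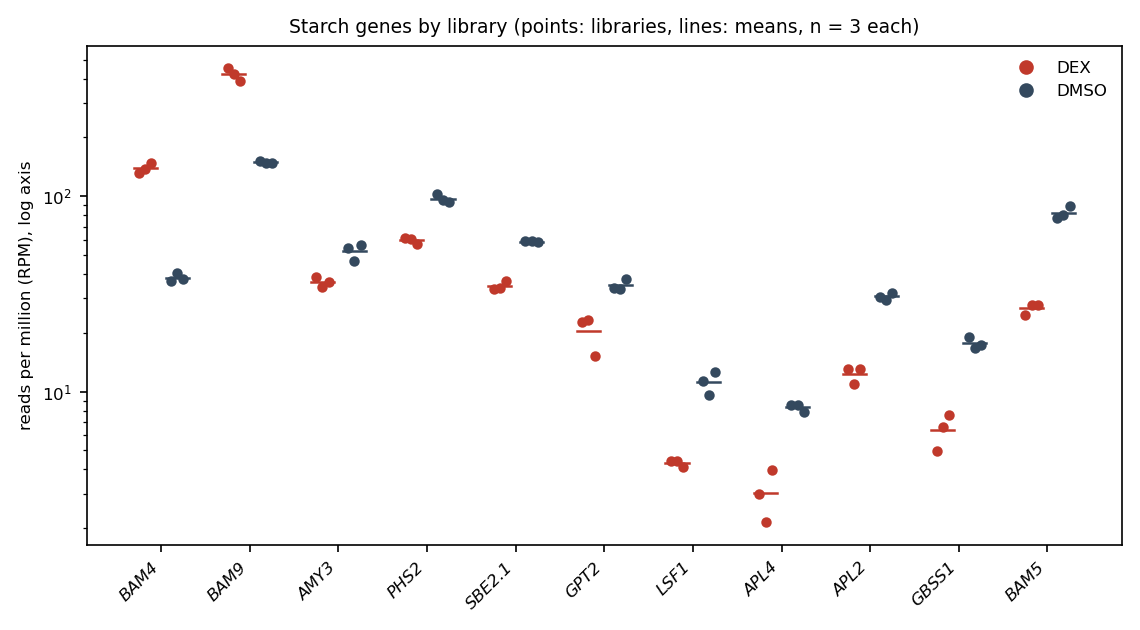
RPM (y axis, log scale) of 11 starch genes in each of the 3 DEX and 3 DMSO libraries, with group means as lines. The genes are those that passed the test by at least 1 on the log2 scale or had the largest called change of their role, and for each of them the DEX points lie all above or all below the DMSO points, as in BAM4 (132 to 149 RPM in DEX, 36.9 to 40.3 RPM in DMSO).

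Of the 5 genes for glucan kinases and phosphatases, 3 were lower in DEX (28.1% of all genes were). LSF1 (AT3G01510), a phosphatase-like protein that binds granules and beta-amylases, had 4.39, 4.42 and 4.13 RPM in DEX libraries, against 11.3, 9.60 and 12.6 RPM in DMSO libraries. The DEX libraries differed little among themselves and lay far below the DMSO libraries (log2 fold change -1.19, SE 0.163, adjusted p = 7.94e-06). LSF1 shares 343 exon bases with AT3G01500 on the same strand, which did not pass the test. GWD1 (AT1G10760), the glucan, water dikinase that starts breakdown, averaged 24.9 ± 1.26 RPM in DEX and 40.6 ± 1.06 RPM in DMSO (log2 fold change -0.69, adjusted p = 8.32e-06). PWD (AT5G26570), the kinase that acts after it, averaged 42.4 ± 0.841 RPM in DEX and 55.4 ± 4.19 RPM in DMSO (log2 fold change -0.38, adjusted p = 0.00126).

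The phosphatases that remove these phosphates did not pass. SEX4 (AT3G52180) had 29.8, 28.5 and 24.4 RPM in DEX libraries, against 28.9, 27.3 and 24.4 RPM in DMSO libraries, with overlapping groups (log2 fold change 0.03, 95% interval -0.20 to 0.27). LSF2 (AT3G10940) averaged 14.6 ± 2.201 RPM in DEX and 17.7 ± 2.31 RPM in DMSO (log2 fold change -0.26, 95% interval -0.56 to 0.04).

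Of the 8 listed beta-amylase genes 3 were higher (37.5%, where 29.6% of all genes were) and 3 lower (37.5%, where 28.1% were). BAM4 (AT5G55700), a plastid protein that lacks beta-amylase activity yet is needed for normal starch breakdown in leaves, had 132, 137 and 149 RPM in DEX libraries, against 36.9, 40.3 and 37.6 RPM in DMSO libraries. Every DEX library was more than 3 times the highest DMSO library (log2 fold change 1.83, SE 0.0783, adjusted p = 2.12e-12). BAM9 (AT5G18670), also a plastid protein without catalytic activity, had 452, 420.2 and 388 RPM in DEX libraries, against 152, 149 and 148 RPM in DMSO libraries. The DMSO libraries were nearly equal and the lowest DEX library was far above them (log2 fold change 1.48, SE 0.0656, adjusted p = 3.50e-12). Among all 17675 genes ordered from the highest log2 fold change, BAM4 ranked 496 and BAM9 ranked 803.

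BAM1 (AT3G23920), an active plastid enzyme known for starch breakdown in guard cells and under stress, was the third that rose. It had 58.6, 57.2 and 57.5 RPM in DEX libraries, against 28.9, 32.8 and 33.6 RPM in DMSO libraries (log2 fold change 0.84, SE 0.0892, adjusted p = 3.61e-07). BAM3 (AT4G17090), the main enzyme of nightly breakdown in leaves, had 16.6, 16.9 and 17.6 RPM in DEX libraries, against 32.4, 31.8 and 34.8 RPM in DMSO libraries (log2 fold change -0.91, SE 0.104, adjusted p = 8.95e-07). The groups of both genes were far apart, in opposite directions. BAM3 shares up to 531 exon bases with genes on the opposite strand, BAM4 shares 87 and BAM9 shares 33.

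BAM5 (AT4G15210), a cytosolic enzyme known from phloem, had the lowest log2 fold change of the starch genes. It had 24.7, 27.6 and 27.7 RPM in DEX libraries, against 76.9, 80.4 and 89.0 RPM in DMSO libraries (log2 fold change -1.59, SE 0.0903, adjusted p = 1.06e-10). BAM2 (AT4G00490), another plastid enzyme, averaged 21.1 ± 3.17 RPM in DEX and 29.8 ± 1.15 RPM in DMSO (log2 fold change -0.49, adjusted p = 0.00191). BAM7 (AT2G45880) and BAM8 (AT5G45300), nuclear DNA-binding proteins with a beta-amylase domain, did not pass, with log2 fold changes of -0.23 (95% interval -0.55 to 0.08) and -0.20 (95% interval -0.52 to 0.13). BAM8 had 12.4, 14.4 and 19.2 RPM in DEX libraries, and without DEX-3 its log2 fold change was -0.36 (adjusted p = 0.0299).

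Within the family the make-up of the RNA per kilobase of exon shifted towards BAM9 and BAM4. BAM9 held 64.4, 62.4 and 58.6% of beta-amylase RPM per kb in DEX libraries, against 42.8, 41.9 and 40.7% in DMSO libraries. BAM4 held 20.2 ± 1.82% in DEX and 10.6 ± 0.558% in DMSO. BAM5 held 2.96 ± 0.276% in DEX and 17.3 ± 1.06% in DMSO, where it was second to BAM9. BAM7 held 0.988 ± 0.171% in DEX and 2.22 ± 0.276% in DMSO, and BAM8 held 1.90 ± 0.481% in DEX and 4.13 ± 0.640% in DMSO. The share of BAM1 was 6.72 ± 0.135% in DEX and 7.03 ± 0.491% in DMSO, although its own level rose. These shares depend on each other, since they add up to the whole, and were not tested.

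**Figure D3:**
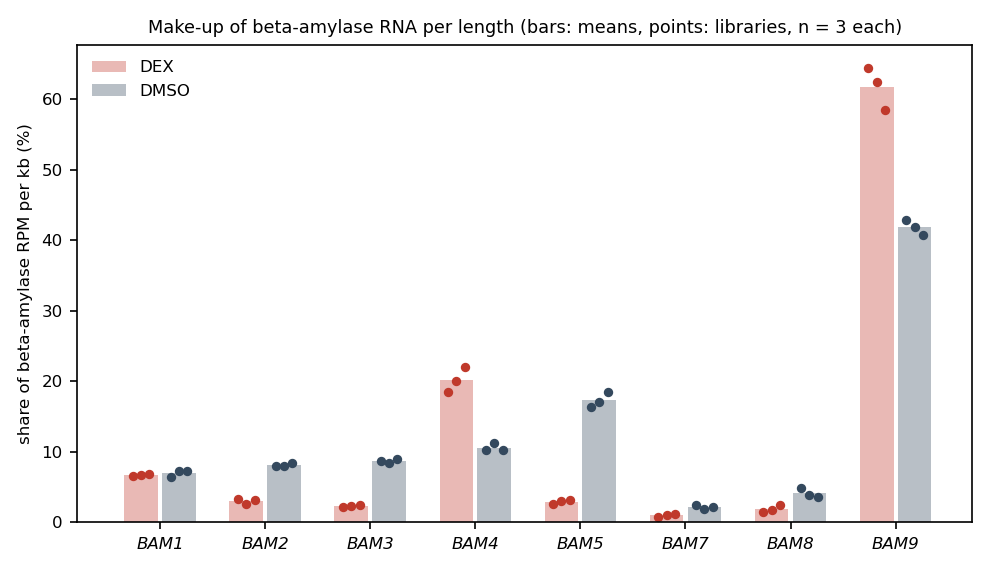
Share of summed beta-amylase RPM per kb of exon (y axis, percent) held by each of the 8 listed genes, with DEX and DMSO means as bars and the 3 libraries of each as points. BAM9 and BAM4 take larger shares in DEX (61.8% and 20.2%) than in DMSO (41.8% and 10.6%), and BAM5, BAM3, BAM2, BAM7 and BAM8 take smaller ones.

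Of the 3 alpha-amylases 1 was lower (28.1% of all genes were), 1 was higher (29.6% of all genes were) and 1 did not pass. AMY3 (AT1G69830), the plastid enzyme, had 38.4, 34.4 and 36.3 RPM in DEX libraries, against 54.1, 46.9 and 56.2 RPM in DMSO libraries. The groups did not overlap (log2 fold change -0.51, SE 0.0937, adjusted p = 0.000166). AMY2 (AT1G76130) had 6.73, 6.70 and 4.41 RPM in DEX libraries, against 3.78, 3.37 and 4.35 RPM in DMSO libraries. DEX-3 lay just above the highest DMSO library. Its difference of 0.51 on the log2 scale (adjusted p = 0.0335) was lost without DEX-1, DEX-2, DMSO-1 or DMSO-2 (adjusted p = 0.0747 to 0.123). AMY1 (AT4G25000), a secreted enzyme, had 2.84 ± 0.472 RPM in DEX and 2.71 ± 1.12 RPM in DMSO, with overlapping groups (log2 fold change 0.09, 95% interval -0.41 to 0.58). It had 31, 34 and 47 reads in DEX libraries and 22, 33 and 50 reads in DMSO libraries.

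Enzymes that take up the products of breakdown were lower or did not pass, 3 of 5 being lower (28.1% of all genes were). PHS2 (AT3G46970), the cytosolic glucan phosphorylase, had 60.8, 60.5 and 57.2 RPM in DEX libraries, against 102, 95.8 and 93.6 RPM in DMSO libraries. The libraries of each treatment lay close together and the treatments well apart (log2 fold change -0.70, SE 0.0748, adjusted p = 4.37e-07). DPE2 (AT2G40840), the cytosolic glucosyltransferase that uses maltose, averaged 55.9 ± 4.82 RPM in DEX and 82.9 ± 2.28 RPM in DMSO (log2 fold change -0.56, adjusted p = 1.45e-05). PHS1 (AT3G29320), the plastid phosphorylase, averaged 54.1 ± 1.76 RPM in DEX and 75.4 ± 4.37 RPM in DMSO (log2 fold change -0.47, adjusted p = 7.01e-05). PHS1 held 47.5 ± 1.08% of the phosphorylase RPM per kb in DEX and 43.6 ± 2.198% in DMSO.

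DPE1 (AT5G64860), the plastid enzyme that recycles maltotriose, averaged 33.6 ± 1.83 RPM in DEX and 36.5 ± 3.95 RPM in DMSO, with overlapping groups (log2 fold change -0.11, 95% interval -0.32 to 0.10). MEX1 (AT5G17520), the maltose exporter, had 15.7, 16.0 and 17.1 RPM in DEX libraries, against 18.2, 19.3 and 19.7 RPM in DMSO libraries. Its groups did not overlap but the log2 fold change of -0.21 (95% interval -0.46 to 0.03) did not pass (adjusted p = 0.123). Of the windows of 50 bases in MEX1 exons 62.2% occur elsewhere in the genome, 786 of them in AT5G17523, so its reads may be divided with that gene and its value is uncertain.

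Summed by role, RPM was higher in DEX for beta-amylases, overlapped for import and was lower for the other roles. The 8 beta-amylase genes summed to 729.6, 702 and 693 RPM in DEX libraries, against 391, 391 and 403 RPM in DMSO libraries. BAM4 and BAM9 alone summed to 559 ± 23.9 RPM in DEX and 188 ± 1.88 RPM in DMSO. The other 6 summed to 149 ± 6.45 RPM in DEX and 207 ± 8.79 RPM in DMSO, a division made after the values were seen. Genes of ADP-glucose supply summed to 92.4 to 99.5 RPM in DEX libraries and 151 to 168 RPM in DMSO libraries, and branching and debranching genes to 132 to 137 RPM in DEX libraries and 189 to 206 RPM in DMSO libraries.

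For glucose 6-phosphate import the ranges met, at 83.3 to 98.8 RPM in DEX libraries and 96.8 to 99.5 RPM in DMSO libraries. All 41 genes summed to 1510 ± 40.4 RPM in DEX and 1499 ± 11.2 RPM in DMSO, with overlapping libraries. Taken singly, 32 of the 41 genes did not overlap, and neither did 62.9% of all genes. BAM9 alone supplied 29.1, 28.0 and 26.3% of the summed RPM in DEX libraries, against 10.05, 10.00 and 9.84% in DMSO libraries. Sums follow the most abundant genes and were not tested.

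**Figure D4:**
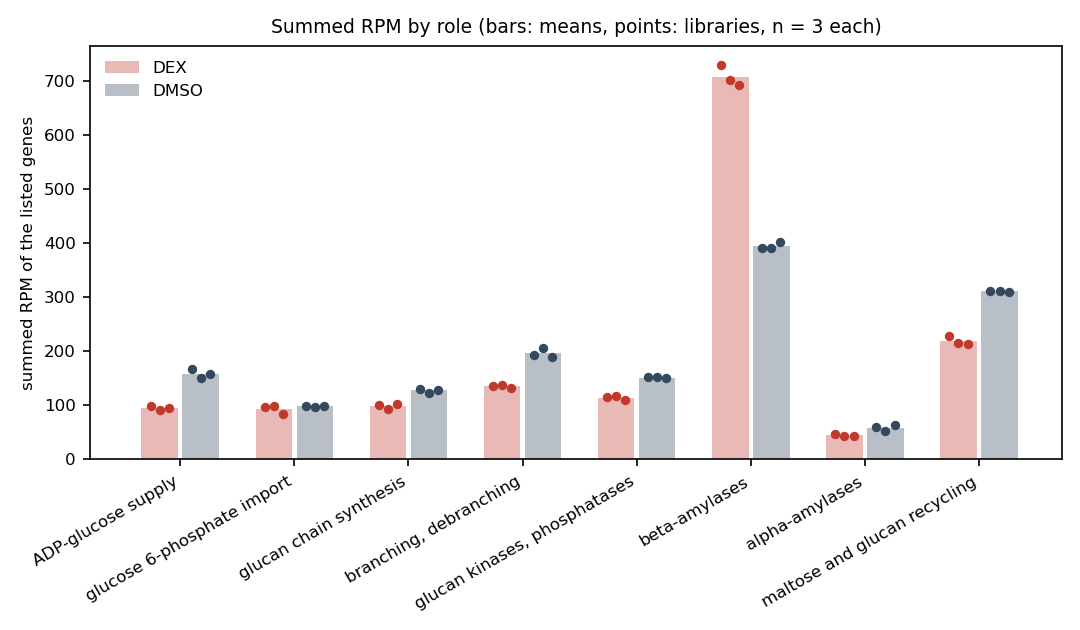
Summed RPM (y axis) of the listed genes of each role, with DEX and DMSO means as bars and the 3 libraries of each as points. The beta-amylase sum is higher in DEX (693 to 729.6 RPM) than in DMSO (391 to 403 RPM), import overlaps, and the sums of the other roles are lower in DEX.

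BAM9 had the highest level per kilobase of the 41 genes in both treatments, 211 ± 16.2 RPM per kb in DEX and 75.1 ± 0.986 RPM per kb in DMSO. The order below it changed. In DEX it was followed by BAM4 (68.9 ± 4.28), GPT1 (39.9 ± 2.08), APS1 (28.8 ± 3.31) and BAM1 (22.9 ± 0.283 RPM per kb), each farther from the next than their SDs. In DMSO it was followed by APS1 (49.8 ± 3.54), GPT1 (34.8 ± 1.29), BAM5 (31.1 ± 2.34) and PHS2 (30.7 ± 1.41 RPM per kb), of which BAM5 and PHS2 did not differ beyond their spread. BAM4 ranked 2 in DEX and 12 in DMSO, BAM1 ranked 5 in DEX and 22 in DMSO, and BAM5 ranked 19 in DEX and 4 in DMSO. At the low end, APL4 had 1.0995 ± 0.334 RPM per kb in DEX and 3.01 ± 0.135 RPM per kb in DMSO. LSF1 had 1.74 ± 0.0650 RPM per kb in DEX and 4.51 ± 0.615 RPM per kb in DMSO, and LDA and AMY1 were below 2 RPM per kb in both treatments.

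**Figure D5:**
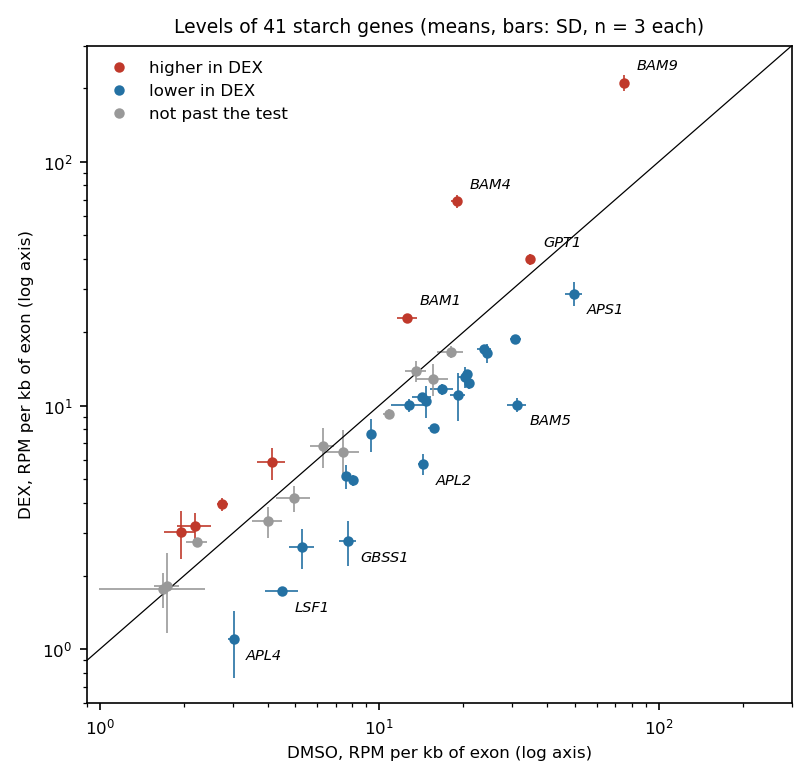
Mean RPM per kb of exon in DEX (y axis) against DMSO (x axis), both on log scales, for the 41 listed starch genes, with SD over 3 libraries and a line of equal levels. BAM9 is the highest on both axes, BAM4 and BAM1 lie above the line, and BAM5, GBSS1, LSF1 and the large subunit genes APL2 and APL4 lie below it.

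Another 20 genes outside the 42 belong to starch metabolism or to the wider sugar metabolism around it, such as HXK1, HXK2, PGM2 and PGIC. Of these 20 genes 8 were lower (40%, where 28.1% of all genes were) and 4 higher (20%, where 29.6% of all genes were). The other 8 did not pass, and the median log2 fold change was -0.09. The share called, 60%, was near the 57.7% of all genes. LESV (AT3G55760), a granule matrix protein, averaged 11.6 ± 1.27 RPM in DEX and 27.9 ± 1.47 RPM in DMSO (log2 fold change -1.20, adjusted p = 2.10e-07). BE1 (AT3G20440), a branching enzyme-like gene, averaged 8.78 ± 0.701 RPM in DEX and 17.8 ± 1.12 RPM in DMSO (log2 fold change -0.94, adjusted p = 1.20e-05). SS5 (AT5G65685), with 12.6 ± 0.881 RPM in DEX and 6.57 ± 0.720 RPM in DMSO, and MFP1 (AT3G16000), with 18.3 ± 1.24 RPM in DEX and 11.9 ± 1.77 RPM in DMSO, rose. The other 2 that rose, MRC (log2 fold change 0.48, adjusted p = 0.0339) and PGLCT (log2 fold change 0.28, adjusted p = 0.00679), are named after their values were seen. PTST2 (log2 fold change 0.03, adjusted p = 0.895) and PTST3 (log2 fold change 0.20, adjusted p = 0.336) were among those that did not pass.

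Clock genes and markers of other tissue were read in the same libraries, where 57.7% of all genes were called, 29.6% as higher and 28.1% as lower. Of 11 clock genes 8 were higher in DEX and 1, GI, was lower (median log2 fold change 0.41), with PRR7 (AT5G02810) at 44.8 ± 2.30 RPM in DEX and 19.7 ± 0.616 RPM in DMSO and RVE8 (AT3G09600) at 9.76 ± 0.688 RPM in DEX and 4.45 ± 0.669 RPM in DMSO. PRR5 (AT5G24470) had a log2 fold change of 0.90 and PRR9 (AT2G46790) one of 0.73. PRR9 had 0.563 RPM in DMSO-1, so it reached 1 RPM in 3 libraries only with the DEX libraries. It is among the 8, and its direction is no support. All 9 markers of older anthers were higher in DEX and summed to 57.4 to 61.7 RPM in DEX libraries and 26.3 to 29.2 RPM in DMSO libraries. Of these, MS2, CYP703A2, ATA7, ACOS5 and LAP5 were below 1 RPM in at least 2 DMSO libraries. They reached the table's minimum of 1 RPM in 3 libraries only with the DEX libraries, so their direction followed from being listed and the count of 9 is no support. MS2 (AT3G11980), with 3.05 ± 1.002 RPM in DEX, and CYP703A2 (AT1G01280), with 2.02 ± 0.373 RPM in DEX, were at 0 reads in all DMSO libraries. The 4 markers at or above 1 RPM in every library were A9, LTP12, TKPR1 and LAP6, with log2 fold changes of 1.03, 1.11, 0.80 and 0.39.

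Of 8 markers of green tissue 4 were higher and 2 were lower in DEX (median 0.20), summing to 10582 to 11380 RPM in DEX libraries and 9162 to 9450 RPM in DMSO libraries. The largest called changes among them were those of LHCB1.1 (0.70), RBCS1B (-0.50), RBCS2B (-0.44) and LHCB1.3 (0.34). Of the 9 young flower markers 4 were called (44.4%, below the 57.7% of all genes), of which 2 were higher, PI (0.63) and SEP3 (0.34), and 2 were lower, STM (-0.39) and AP3 (-0.23), with a median of -0.17. The part of the clock, of older anthers or of green tissue in the differences of the starch genes was not tested.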

How the data were processed

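RNA-seq libraries of 3 DEX and 3 DMSO inflorescence samples were grouped by their titles. The authors deposited reads per 1000000 (RPM) for 17675 genes, each library summing to that total. TopHat and HTSeq are the tools listed, per the submitters' processing notes. No source used here gives their versions, the genome build, the annotation or the use of strand. Each listed gene reaches 1 RPM in at least 3 libraries, and all 41 starch genes do so in every library.

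Log2(RPM + 1) values were tested with limma 3.58.1 (R 4.3.3, intensity trend, two-sided) over all genes, with Benjamini-Hochberg adjustment and a threshold of 0.05. A pseudocount of 1 understates changes of weak genes. In all 6 libraries 100% of values were whole reads within 0.01 reads, so edgeR 4.0.16 (10146 genes called) and DESeq2 1.42.0 were run on recovered reads as alternatives. The other alternatives were pseudocounts of 0.1 and 5, a minimum mean of 5 RPM or none, TMM and median-of-ratios scaling, limma with robust moderation or without trend, the replicate number as a block, and leaving out each library. The script was tested on simulated data.

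The starch genes and lists were chosen with earlier results of these data known. By rule, values in every library are given for genes called with an absolute log2 fold change of at least 1 and for the largest called change of each role. Other genes given by library were chosen after their values were seen. Of the other lists, up to 4 called members of largest change are named. Names, exon lengths and promoters come from RefSeq TAIR10.1, which matched 17646 of 17675 identifiers and all 41 starch genes. Printed coordinates are those of TAIR10.1 alone. Reads from genes that overlap cannot be set apart without strand. Shared exon bases are summed over the overlapping genes, so a base shared with several of them counts more than once. Nothing says that replicates came from separate plants, so p-values measure only how these samples spread, which may be technical. No library was a copy of another, since chi-square per degree of freedom between replicates was 2.80 to 12.0. Counting error is the only error that read depth addresses, and 1 read equals 0.0691 to 0.0934 RPM. No source used here gives the duration of treatment, the hour of harvest or a batch.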

Additional observations from a re-analysis of the deposited data

How the results depend on the processing

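Of 30 called starch genes, 24 kept their call and direction in all 17 alternatives, and no called gene changed direction in any of them. Across all genes, 8916 (minimum mean of 5 RPM) to 10412 (without DEX-3) passed, against 10204. The count of starch genes lower in DEX was 20 to 23, against 22. The count higher was 4 to 8, against 8, and with 1 library left out it ranged from 4 (without DEX-2) to 7 (without DEX-3). The genes behind this range are APL1, PGM1, GPT1 and AMY2, each with an adjusted p over 0.05 in at least 2 alternatives. SS2 lost its call with DESeq2 (adjusted p = 0.0598) and without the intensity trend (0.0831). SS3 gained one without the trend (0.0365). A pseudocount of 5, which shrinks weak genes by construction, gave log2 fold changes of -0.74 for APL4, -0.79 for LSF1, 0.26 for APL1 and 0.30 for AMY2. A minimum mean of 5 RPM removed APL1, AMY2 and AMY1. Every listed gene already met the minimum of 1 RPM in 3 libraries, so leaving it out repeated the main analysis and is no check.

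Same-numbered DEX and DMSO libraries had correlations of their deviations of -0.0745, 0.103 and 0.0384. Those with different numbers had -0.149 to 0.109. These values showed no sign of pairing by number, but with 3 libraries per group they cannot exclude it. With the replicate block 10255 genes were called, of the starch genes 7 higher and 22 lower, and APL1 lost its call (adjusted p = 0.0527).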
